A study of Mus musculus with 20 samples.

Results

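The genes described here are 32 members of the pathways that make cholesterol and fatty acids. They were chosen by name, as the enzymes of sterol synthesis, the SREBP regulators and the lipogenic enzymes, and all 32 were matched to an Ensembl identifier among the 55573 genes of the count table. RNA-seq was performed on 20 libraries of embryoid body (EB) cultures, in which pluripotent cells aggregate and differentiate. They came from 4 mouse induced pluripotent stem cell (iPSC) lines, each sampled on days 0, 3, 5, 7 and 14 with 1 library per day: WT#1-4 and WT#20D-17, from wild type fibroblasts, and Nox4-/-#5-8 and Nox4-/-#5-23, from fibroblasts of mice lacking Nox4, which encodes an NADPH oxidase that makes reactive oxygen species. The paper's text names only WT#1-4 among the wild type lines, and WT#20D-17 is wild type by its label. Each line is 1 clone, made from embryonic fibroblasts with retroviruses carrying Oct4, Sox2, Klf4 and c-Myc and selected with puromycin, which the controls share. All lines were kept on mitomycin-treated fibroblast feeders with LIF, aggregated in hanging drops without LIF for 3 days and plated on gelatin. The labels' titles give the last day as 14, while their protocol text gives 10, and 14 is used. The study's methods name CF-1 embryos as a source of fibroblasts and do not say whether the lines or the feeders came from them.

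Cholesterol synthesis joins acetyl-CoA units into HMG-CoA, reduces this to mevalonate, and builds from mevalonate the isoprenoid farnesyl pyrophosphate. A pair of farnesyl units is joined to squalene, which is closed into lanosterol and trimmed step by step to cholesterol. Fatty acid synthesis starts from the same acetyl-CoA, which ATP citrate lyase releases from citrate. The transcription factors SREBP2 and SREBP1, encoded by Srebf2 and Srebf1, drive the sterol and the lipogenic genes when membrane cholesterol is low, and INSIG1 holds them back in the endoplasmic reticulum when it is high. Pluripotent and differentiating cells both draw on these pathways for membrane, for isoprenoid groups on signalling proteins and for the sterol bound to Hedgehog proteins.

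Many members share short motifs in their promoters, and 5 promoters are shown because their genes represent the patterns described here. RefSeq promoters of the build GRCm38.p6, running from 250 bases before to 50 bases after the start site, were found for 25 of the 32 members; Fdps, Fdft1, Sqle, Stard4, Scd1, Scd2 and Fads1 had no entry in the table used. The letters CCAAT, on either strand, stood in 20 of the 25 promoters (80%), against 41.1% of the promoters of all 27025 genes. They are the site of NF-Y, a factor that binds beside SREBP at sterol genes. All 9 promoters of the squalene to cholesterol genes held them, as did 5 of 6 in the mevalonate arm, 3 of 3 among the regulators, 3 of 5 in fatty acid synthesis and 0 of 2 among the polyunsaturated fatty acid genes. TCACNCCAC, the core of the sterol regulatory element, stood on either strand in 1 of 25 (4%), in Hmgcs1, against 1.44% of all promoters. These letters overlap no CCAAT there, and a match of letters is not a site shown to be bound.

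The bases before the start site are printed 5′ to 3′ on the strand of the gene, cut where a GENCODE transcript begins, with each match in capitals. Hmgcs1 (chr13:119690101-119690350, plus strand) is the promoter with both motifs. Mvd (chr8:122443423-122443672, minus strand) belongs to the gene that followed the other sterol enzymes most closely. Hsd17b7 (chr1:169969242-169969455, minus strand) had the smallest p in the genotype test. Insig1 (chr5:28071162-28071362, plus strand) had the widest ratio between its highest and lowest library. Fasn (chr11:120824548-120824797, minus strand) stands for the fatty acid enzymes that fell over the days, and in it CCAAT and its reverse complement overlap.
Hmgcs1: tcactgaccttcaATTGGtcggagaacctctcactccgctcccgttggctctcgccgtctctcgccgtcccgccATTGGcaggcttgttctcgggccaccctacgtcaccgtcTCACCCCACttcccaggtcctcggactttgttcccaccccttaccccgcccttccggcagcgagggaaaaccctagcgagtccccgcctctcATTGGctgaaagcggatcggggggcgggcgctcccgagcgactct
Mvd: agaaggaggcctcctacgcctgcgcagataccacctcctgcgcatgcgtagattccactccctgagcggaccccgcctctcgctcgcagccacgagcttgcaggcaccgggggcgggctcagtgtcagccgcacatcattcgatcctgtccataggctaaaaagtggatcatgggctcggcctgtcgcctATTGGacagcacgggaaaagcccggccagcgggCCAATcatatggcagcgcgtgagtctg
Hsd17b7: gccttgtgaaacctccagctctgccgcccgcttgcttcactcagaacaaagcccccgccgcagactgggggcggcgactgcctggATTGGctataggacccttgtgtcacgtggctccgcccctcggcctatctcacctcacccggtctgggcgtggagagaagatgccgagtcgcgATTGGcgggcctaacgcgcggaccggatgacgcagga
Insig1: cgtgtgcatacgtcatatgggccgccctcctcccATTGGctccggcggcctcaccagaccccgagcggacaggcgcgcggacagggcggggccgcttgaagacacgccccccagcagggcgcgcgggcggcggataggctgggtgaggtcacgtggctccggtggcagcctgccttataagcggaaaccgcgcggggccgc
Fasn: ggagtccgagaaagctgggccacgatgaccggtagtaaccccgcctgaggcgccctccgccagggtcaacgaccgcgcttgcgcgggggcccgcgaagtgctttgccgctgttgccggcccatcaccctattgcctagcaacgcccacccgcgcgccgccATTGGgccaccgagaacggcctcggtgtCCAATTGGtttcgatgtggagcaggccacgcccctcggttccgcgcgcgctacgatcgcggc

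Libraries held between 20294968 and 27708023 counts. Values are in CPM, which divides each count by the TMM-scaled total of its library. The lowest count of any member in any library was 102, of Tm7sf2. Nox4 was at 0.148 to 0.882 CPM in WT#1-4 and 2.6 to 8.96 CPM in WT#20D-17, and at most 0.0846 CPM in the knockout lines. The 0.148 CPM of WT#1-4 was on day 14, where 3 counts are 0.142 CPM before TMM scaling. Summed CPM of 8 pluripotent markers at day 0 was 5868 in WT#1-4, 3727 in WT#20D-17, 3264 in Nox4-/-#5-8 and 4642 in Nox4-/-#5-23, and on day 14 it was 1285, 95.2, 1961 and 3925 in the same order. Pou5f1, the gene of Oct4, had 25771 to 151651 counts in WT#1-4, 40379 to 79459 in Nox4-/-#5-8 and 75841 to 118210 in Nox4-/-#5-23. The marker with the next highest count in these lines, Sox2, reached 885, 3866 and 5438, so their sums are mostly Pou5f1. Retroviral and endogenous Oct4 were not told apart. Single markers differed between the lines. At day 0 Nanog was at 379 CPM in WT#20D-17 and at 0.0384, 0.362 and 0.15 CPM in WT#1-4, Nox4-/-#5-8 and Nox4-/-#5-23, and Zfp42 was at or under 3 counts in every library of those 3 lines. Summed CPM of 8 visceral endoderm and liver markers was 631 to 3564 in WT#20D-17 and at most 5.34 elsewhere, and that of 8 fibroblast markers was 23.1 to 2932 in WT#20D-17, 45.2 to 111 in WT#1-4 and 5.04 to 26.6 in the knockout lines. Of 7 adipocyte markers, Adipoq and Plin1 were at or under 3 counts in every library, and the sum of the list was at most 19.9 CPM. In bulk RNA, fewer cells of a type and less RNA per cell cannot be told apart, and the part of these cell types in any result was not tested.

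Genes were compared per kilobase of exon, with all annotated exons of a gene joined, so ranks depend on the annotation. On this scale Scd2, a stearoyl-CoA desaturase, was the most abundant member, with a median of 147 CPM per kb over the 20 libraries (75.3 to 461). Acly (49.2), Hmgcs1 (41.2), Me1 (36.7) and Scd1 (36.7) followed in median CPM per kb, with ranges that overlapped each other. At the other end stood Acsl4 (5.92), Acaca (5.16) and Tm7sf2 (2.90), whose ranges also overlapped. Insig1 had a median of 27.9 CPM per kb but spanned 15.9 to 369, the widest range in this scale after that of Scd2. Some values depend on how reads were divided between genes. Sequences of at least 95% identity over 200 bases or more were found in other genes for several members. The processed pseudogene Gm5182 matched Acaca at 99.2% over 6118 bases and had up to 642 counts, against up to 4197 for Acaca. Scd1 and Scd2 matched at 95.5% over 623 bases. Acat2 matched Acat3 at 97.7% over 1477 bases and Tcp1 at 98.7% over 445 bases. On the opposite strand Fdft1 overlaps Ctsb, Cyp51 overlaps Akap9 and Srebf1 overlaps Rai1. Tm7sf2 overlaps Vps51 on its own strand.

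**Figure D1:**
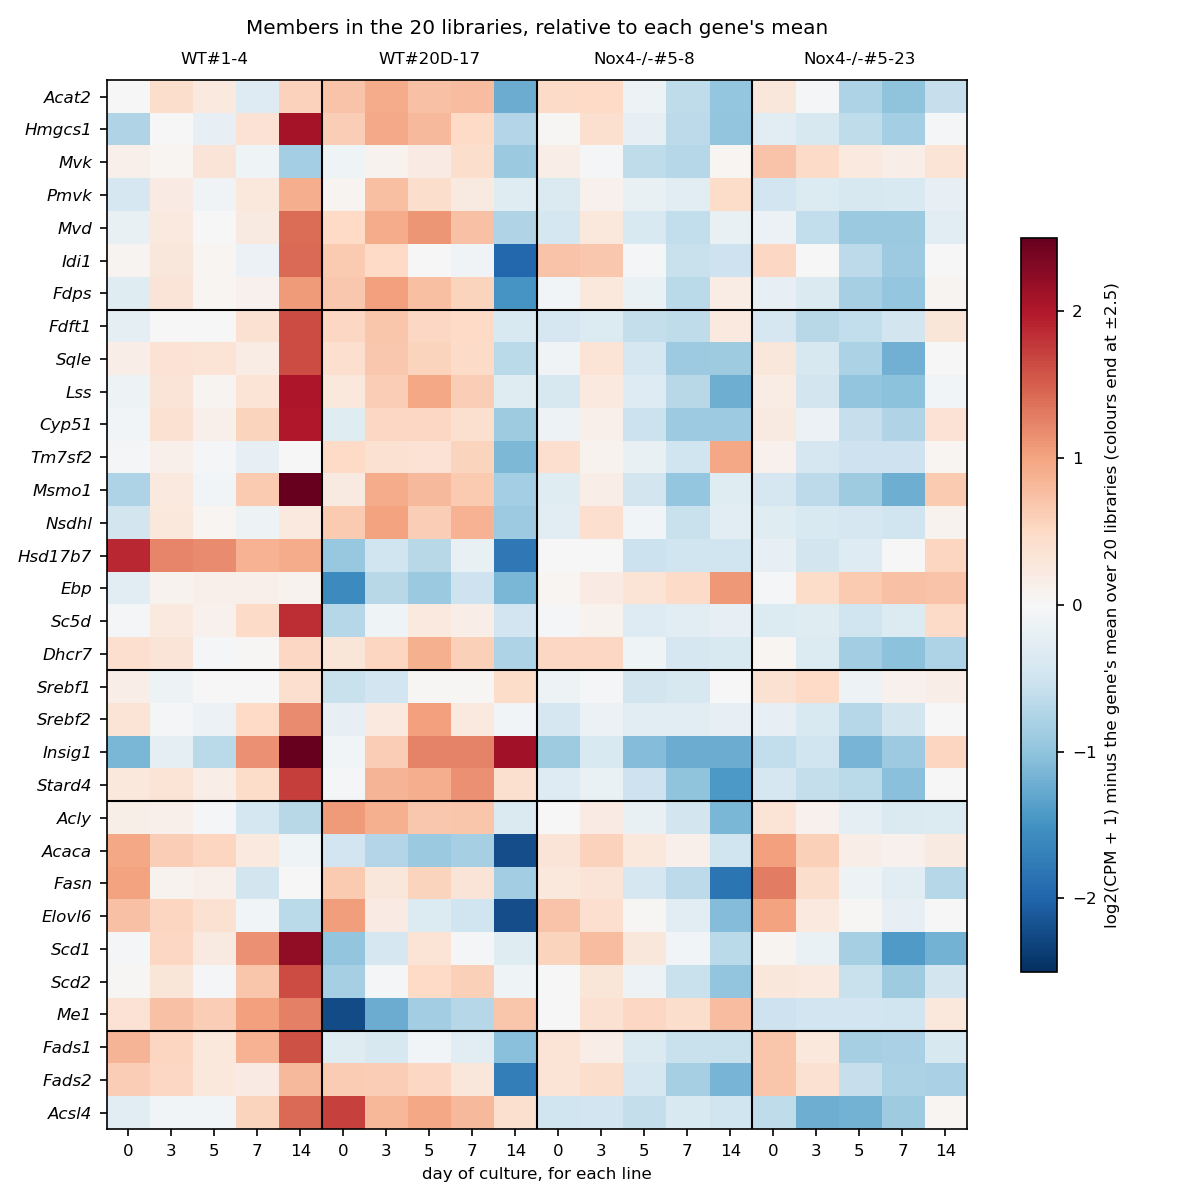
Heat map of the 32 members (rows, in role groups separated by lines) in the 20 libraries (columns, by line and day), as log2(CPM + 1) minus the mean of each gene over all libraries, red above and blue below. The day 14 library of WT#1-4 is high for most sterol genes, up to 1142 CPM for Insig1, and the day 14 library of WT#20D-17 is low for most.

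Over the course the sterol genes of the 4 lines went separate ways, while Acly, Acaca, Fasn and Elovl6 of fatty acid synthesis had the same direction in all 4. From day 0 to day 7, the median log2 change of the 7 mevalonate arm genes was 0.40 in WT#1-4, 0.06 in WT#20D-17, -0.69 in Nox4-/-#5-8 and -0.75 in Nox4-/-#5-23, on the log2(CPM + 1) scale. For the 11 genes from squalene to cholesterol it was 0.39, 0.35, -0.48 and -0.64, in the same order of lines. Both groups were thus above their day 0 median change of 0 in the wild type lines and below it in the knockout lines. The mevalonate arm in WT#20D-17 was close to 0, with 4 genes higher and 3 lower (-0.75 to 0.54). From day 7 to day 14 the lines differed in another way. The median change over all 32 members was 0.79 in WT#1-4, -1.17 in WT#20D-17, 0.01 in Nox4-/-#5-8 and 0.55 in Nox4-/-#5-23. In WT#1-4 27 members were higher on day 14 than on day 7 and in Nox4-/-#5-23 29 were, while in WT#20D-17 29 were lower, 18 of them by more than 1 log2 unit. In Nox4-/-#5-8 17 were higher and 15 lower. The median change of all genes tested from day 0 stayed between -0.033 and 0.020 in every library.

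**Figure D2:**
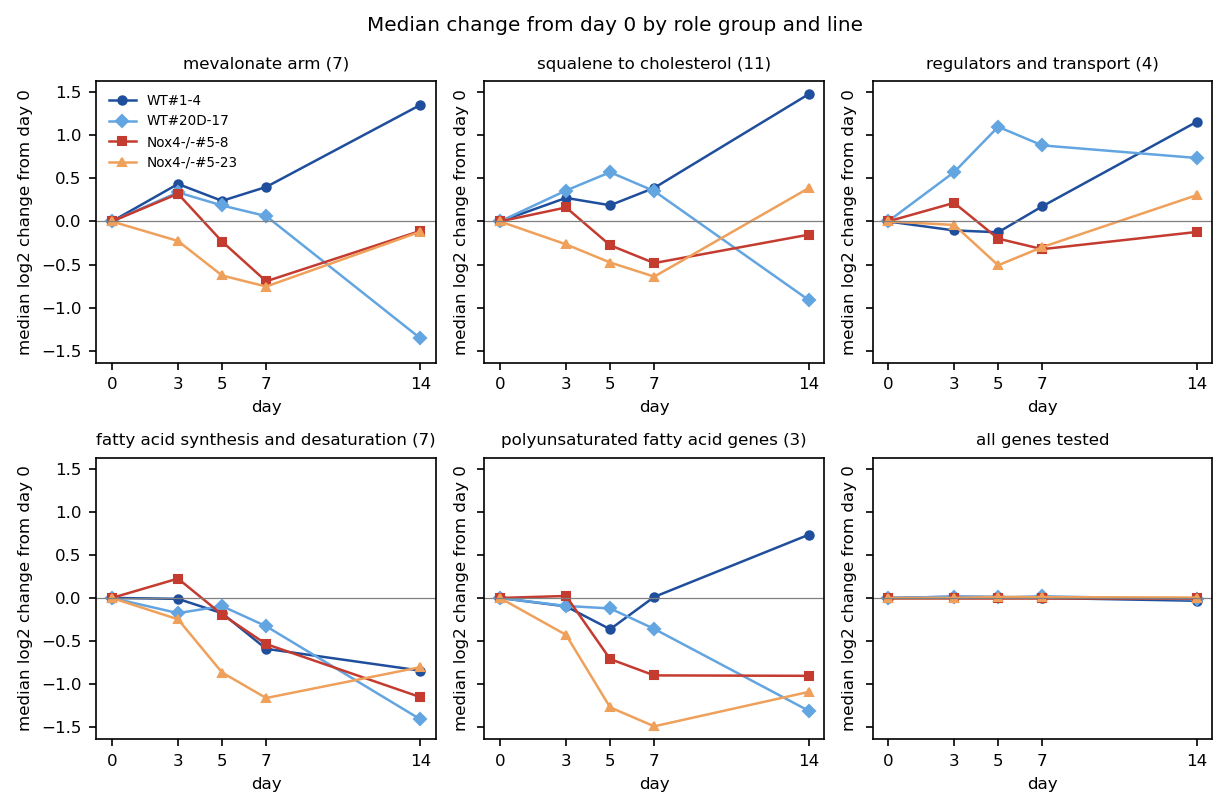
Median log2 change from day 0, on the log2(CPM + 1) scale, against day for each of the 5 role groups (number of genes in brackets) and for all genes tested, with 1 line per cell line. On day 14 the squalene to cholesterol genes stood at 1.47 in WT#1-4 and -0.91 in WT#20D-17, while the fatty acid group was below day 0 in all 4 lines, from -1.41 to -0.80.

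Which members changed with the day of culture, averaged over the lines, was asked with edgeR's quasi-likelihood F test of the day terms. It used the 20 libraries, with the line as a block, at an FDR under 0.01. The test called 5 of the 32 members, 4 lower and 1 higher on day 14 than on day 0, against 18% of the 17827 genes tested (8.52% lower, 9.45% higher). All 5 belong to fatty acid synthesis and desaturation, which has 7 genes, and none of the 25 other members was called. The calls depended on single lines, with 0 members called without Nox4-/-#5-8, 1 without WT#1-4 and 2 without Nox4-/-#5-23, and 0 with no block for the line. Calls among all genes fell as well, from 3203 to 1085, 1428, 623 and 644 in the same order, and rose to 3979 without WT#20D-17. Across all members, 8 had the same direction from day 0 to day 14 in the 4 lines (Ebp, Srebf2 and Me1 higher, Mvk, Acly, Acaca, Fasn and Elovl6 lower), against 39.1% of the 16516 genes whose mean count was 10 or more.

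Acly, ATP citrate lyase, measured 290.1, 288, 256, 192 and 161 CPM in WT#1-4, 546, 483, 419.8, 424 and 205 in WT#20D-17, 263, 303, 229.8, 191 and 118 in Nox4-/-#5-8 and 332, 281, 224, 202 and 208 in Nox4-/-#5-23, in the order of days 0, 3, 5, 7 and 14. In each line the day 14 value was below the day 0 value, and the log2 change was -0.98 ± 0.16 (SE, 4 lines, FDR 0.00118). Here and below, log2 changes over the days and their SE are for day 14 against day 0. The FDR beside them is that of the F test of all day terms together. Acaca, the acetyl-CoA carboxylase that makes malonyl-CoA, measured 151, 118, 112, 90.9 and 71.3 CPM in WT#1-4, 55, 45.8, 39.6, 42.4 and 15.8 in WT#20D-17, 96.2, 115, 92.4, 84 and 54.2 in Nox4-/-#5-8 and 158, 116, 86.1, 83 and 89.9 in Nox4-/-#5-23 on the same days, with a log2 change of -1.08 ± 0.19 (FDR 0.00428). Its level in WT#20D-17 lay below those of the other lines on every day. Fasn, which builds palmitate from malonyl-CoA, measured 528, 278, 284, 190.1 and 259 CPM in WT#1-4, 412, 321, 386, 328 and 142 in WT#20D-17, 315, 327, 196, 166 and 73.4 in Nox4-/-#5-8 and 637, 353, 240.2, 218 and 159 in Nox4-/-#5-23. It fell by 1.59 ± 0.28 on the log2 scale (FDR 0.00322), and on day 3 it was already below its day 0 value in WT#1-4, WT#20D-17 and Nox4-/-#5-23 but not in Nox4-/-#5-8. Elovl6, which lengthens palmitate, measured 179, 156, 141, 102 and 66.9 CPM in WT#1-4, 223, 123, 83.9, 75.5 and 22.1 in WT#20D-17, 176, 143, 110.0, 87.7 and 50.1 in Nox4-/-#5-8 and 217, 128, 109, 93.3 and 108 in Nox4-/-#5-23. Its log2 change of -1.79 ± 0.28 (FDR 0.00104) was the largest fall among the members called.

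Me1, the malic enzyme that supplies NADPH to fatty acid synthesis, moved the other way and rose by 1.38 ± 0.28 on the log2 scale (FDR 0.00783). It measured 146, 190.2, 175, 232 and 274 CPM in WT#1-4, 23.3, 47.5, 62.1, 69.1 and 184 in WT#20D-17, 113, 148, 163, 155 and 196 in Nox4-/-#5-8 and 78.8, 80.8, 81, 79.7 and 136 in Nox4-/-#5-23. Day 14 held the highest value of every line, and WT#20D-17, at 23.3 CPM, began far below the others. The desaturases Scd1 and Scd2 were not called (FDR 0.976 and 0.97). Scd1 measured 179.8, 266, 215, 409.7 and 863 CPM in WT#1-4, 93.2, 138, 233, 179 and 149 in WT#20D-17, 271, 316, 226, 176 and 115 in Nox4-/-#5-8 and 195, 164, 104, 68.4 and 81 in Nox4-/-#5-23. Scd2 measured 835, 1001, 804, 1321 and 2520.1 CPM in WT#1-4, 459, 799.9, 1153, 1228 and 760.3 in WT#20D-17, 806, 1013, 743, 556 and 412 in Nox4-/-#5-8 and 992, 971, 557, 443 and 595 in Nox4-/-#5-23. From day 0 to day 14 both were higher in both wild type lines and lower in both knockout lines.

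**Figure D3:**
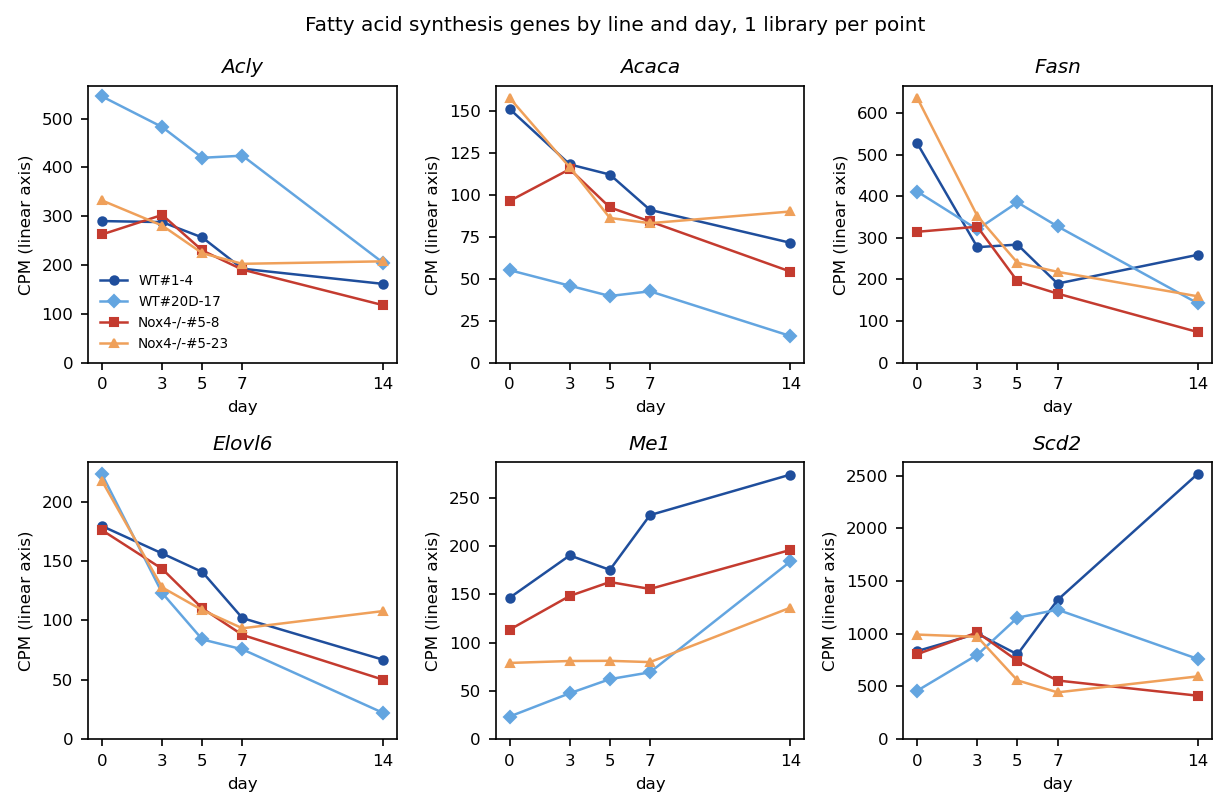
CPM (linear axis from 0) against day for Acly, Acaca, Fasn, Elovl6, Me1 and Scd2, with 1 point per library and 1 line per cell line. Acly, Acaca, Fasn and Elovl6 end below where they began in all 4 lines and Me1 above, while Scd2 ends at 2520.1 CPM in WT#1-4 and 412 CPM in Nox4-/-#5-8.

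In the other role groups no member was called, and those with the smallest p are given here. Acat2, the thiolase of the first step, measured 65.5, 88.8, 77.5, 51.8 and 97.1 CPM in WT#1-4, 107, 124, 109, 111 and 26.8 in WT#20D-17, 90.3, 92, 58.9, 41.3 and 32.7 in Nox4-/-#5-8 and 79.2, 63.8, 37.9, 32 and 43.2 in Nox4-/-#5-23 (FDR 0.226). Pmvk, phosphomevalonate kinase, measured 18.1, 28.5, 23.1, 29.6 and 47.2 CPM in WT#1-4, 25.6, 41.7, 33.6, 28.9 and 19.7 in WT#20D-17, 18.8, 26.6, 21.3, 20.3 and 33.9 in Nox4-/-#5-8 and 17.3, 19.1, 18.4, 18.5 and 21.3 in Nox4-/-#5-23 (FDR 0.261). In WT#1-4, Nox4-/-#5-8 and Nox4-/-#5-23 the highest value of Pmvk was on day 14, whereas in WT#20D-17 the lowest was. Ebp, a sterol isomerase, had a log2 change of 0.70 ± 0.17 (FDR 0.0291) and the same direction in all lines. Srebf1 measured 112, 91.3, 100.4, 100.1 and 132 CPM in WT#1-4, 67.1, 71.3, 101, 101 and 137 in WT#20D-17, 91.3, 97.6, 71.8, 74.5 and 98.7 in Nox4-/-#5-8 and 130.2, 139.5, 91.1, 107 and 112 in Nox4-/-#5-23 (FDR 0.373), and every library lay between 67.1 and 139.5 CPM. Fads2, a desaturase of polyunsaturated fatty acids, measured 103, 95.9, 79.7, 76.6 and 117 CPM in WT#1-4, 104, 103, 95.7, 81 and 19.5 in WT#20D-17, 84.7, 91.1, 49.2, 37.2 and 29 in Nox4-/-#5-8 and 108, 87.5, 44.4, 38 and 37.3 in Nox4-/-#5-23 (FDR 0.0727), below day 0 on day 14 in WT#20D-17 and in both knockout lines and above it in WT#1-4.

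From day 7 to day 14 Hmgcs1 and Msmo1 went opposite ways in the wild type lines, and Insig1 was higher on day 14 in both. Hmgcs1, HMG-CoA synthase, measured 120.5, 206, 177, 263 and 871 CPM in WT#1-4, 314, 397, 357, 289 and 122 in WT#20D-17, 209, 270.1, 178, 129 and 102 in Nox4-/-#5-8 and 167, 154, 131, 113 and 201 in Nox4-/-#5-23, over days 0 to 14. Between days 7 and 14 it went from 263 to 871 CPM in WT#1-4 and from 289 to 122 CPM in WT#20D-17. Msmo1, the methylsterol oxidase, measured 33.4, 69.2, 54.9, 91.4 and 354 CPM in WT#1-4, 68.2, 112, 102, 91.6 and 31.6 in WT#20D-17, 46.8, 65, 41.9, 29.3 and 46.8 in Nox4-/-#5-8 and 43.4, 36.3, 30.9, 24.4 and 91.3 in Nox4-/-#5-23. The day 14 library of WT#1-4 was above all 19 others for both genes. Insig1 measured 52.6, 99.3, 73.2, 261 and 1142 CPM in WT#1-4, 112, 181, 279, 279 and 503 in WT#20D-17, 63.1, 89.6, 54.7, 49.2 and 49.1 in Nox4-/-#5-8 and 76.6, 83.1, 51.6, 61.7 and 171 in Nox4-/-#5-23. Day 14 held its highest value in both wild type lines and in Nox4-/-#5-23, and its lowest in Nox4-/-#5-8. For Insig1 the test over all lines gave an FDR of 0.0468, short of the threshold.

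No member was called in any single step between sampled days at an FDR under 0.01. Among all genes, 29 (0.163%) were called from day 0 to 3, 0 (0%) from day 3 to 5, 0 (0%) from day 5 to 7 and 2 (0.0112%) from day 7 to 14, and at an unadjusted p under 0.05 the members numbered 2, 0, 0 and 7 and all genes 2029, 570, 357 and 3074 of 17827. Over the whole course the SE of the day 14 change from day 0 was 0.53 log2 units for Hmgcs1 and 0.56 for Msmo1. Whether the course differed between genotypes was tested with edgeR's interaction of genotype and day. It called 0 members, against 2 of 17827 genes (0.0112%). DESeq2 called 2 members, Mvk and Scd1, and 186 of all genes. In edgeR's test 5 members, Mvk, Scd1, Scd2, Srebf1 and Insig1, and 1371 of all genes had an unadjusted p under 0.05. The largest differences on day 14, relative to day 0 and to wild type, were those of Insig1 (-3.07 ± 0.86) and Scd1 (-2.98 ± 0.64) in log2 units. Their FDR of 0.573 and 0.477 came from the F test of all interaction terms together, not from day 14 alone. Without WT#1-4, the median interaction of the members changed sign and 1 member, Fdps, was called, against 605 of all genes. Fdps, farnesyl pyrophosphate synthase, went from 161 to 38.7 CPM between days 7 and 14 in WT#20D-17, and in Nox4-/-#5-8 and Nox4-/-#5-23 from 68 and 55.5 to 125 and 115 CPM.

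**Figure D4:**
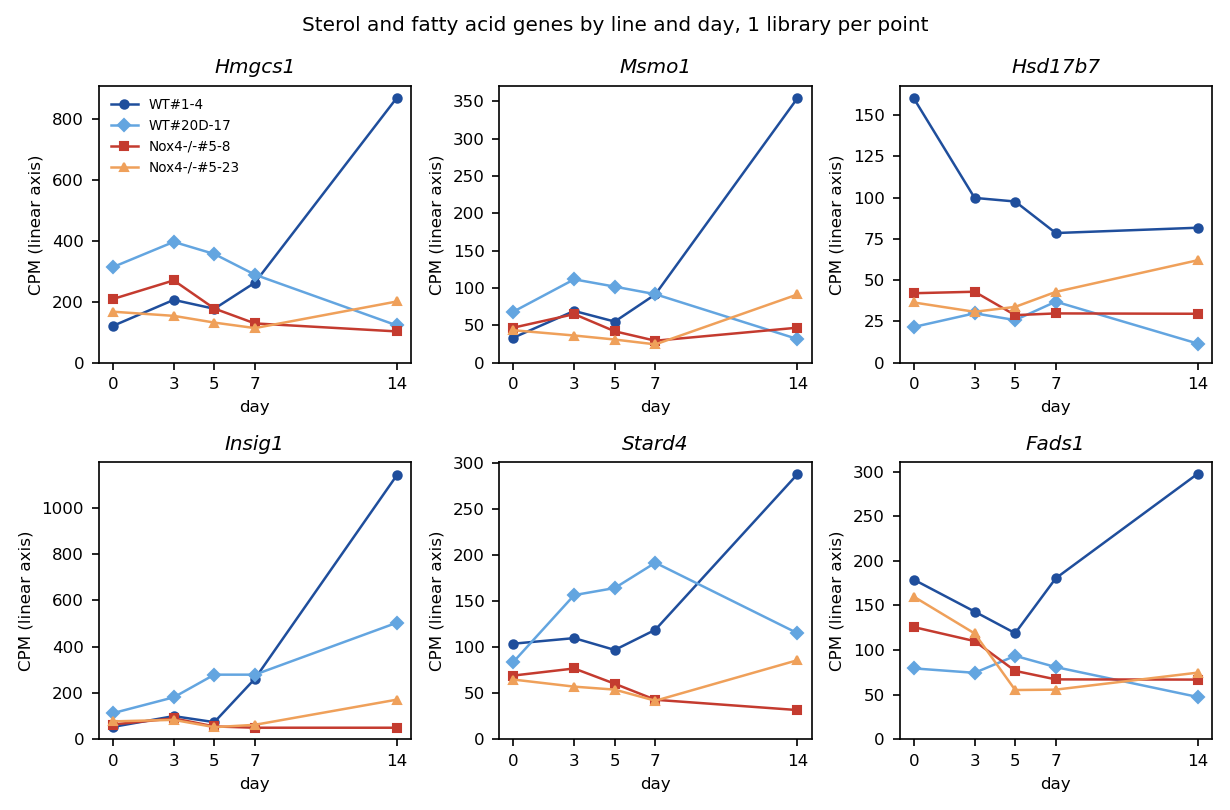
CPM (linear axis from 0) against day for Hmgcs1, Msmo1, Hsd17b7, Insig1, Stard4 and Fads1, with 1 point per library and 1 line per cell line. The day 14 point of WT#1-4 is the highest of 20 for every gene but Hsd17b7, and Hsd17b7 is higher in WT#1-4 than in the other lines on all 5 days.

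The study's main question was what the loss of Nox4 changes, and the 5 libraries of WT#1-4 were compared with the 10 of the knockout lines, all days pooled, by edgeR's exact test at an FDR under 0.01. Of the 32 members 8 were lower in the knockout libraries and 0 higher, against 3.97% of the 33860 genes tested called lower and 5.62% called in either direction. The 8 were 3 of 4 regulators and transport genes (Insig1, Srebf2, Stard4), 3 of 11 genes from squalene to cholesterol (Lss, Cyp51, Hsd17b7), 2 of 3 polyunsaturated fatty acid genes (Fads1, Acsl4), and none in the mevalonate arm or fatty acid synthesis. The median log2 fold change of all 32 was -0.74, against 0 over all genes, and 29 were below 0. Lss, Cyp51, Sqle, Msmo1 and Acsl4 had been listed by the study from these same libraries, so their direction is not independent evidence. The test treats the days of a clone as replicates, which they are not, and the wild type side is 1 clone. With the 4 lines as the units, 0 members (0% of genes) passed edgeR's quasi-likelihood test, and 10 members and 2252 of the 33860 genes had an unadjusted p under 0.05. Hsd17b7 and Stard4 were the 2 members called without the day 14 library of WT#1-4 (1604 of all genes, against 1903 with it), and also the 2 called without Nox4-/-#5-23 (1498 genes), without day 7 (1111 genes) and in the quasi-likelihood test without a block (1227 genes). The exact test called 4 members without Nox4-/-#5-8 (1961 genes), without day 5 (1268) or without day 14 (1854), 5 without day 3 (1276) and 11 without day 0 (1781). With the day as a replicate block 17 members were lower (5.26% of genes).

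Hsd17b7, which reduces a sterol ketone on the way to cholesterol, lies on chromosome 1 from 169949535 to 169969241 (GRCm38). It measured 160.2, 99.8, 97.6, 78.5 and 81.8 CPM in WT#1-4, 21.6, 29.9, 25.8, 36.9 and 11.5 in WT#20D-17, 42, 43, 28.8, 29.8 and 29.6 in Nox4-/-#5-8 and 36.5, 30.8, 33.8, 42.9 and 62 in Nox4-/-#5-23, over days 0 to 14. Every library of WT#1-4 was above every knockout library, with a log2 fold change of -1.46, FDR 5.38e-10. Stard4, which carries cholesterol through the cytosol, measured 104, 109.8, 96.9, 119 and 288 CPM in WT#1-4, 83.8, 157, 164, 192 and 115 in WT#20D-17, 69.1, 76.8, 60.2, 42.8 and 31.6 in Nox4-/-#5-8 and 64.8, 57, 53.8, 41.7 and 85.8 in Nox4-/-#5-23. The highest knockout value of 85.8 CPM was below the lowest value of WT#1-4, 96.9 CPM, and the log2 fold change was -1.31, FDR 4.5e-05. No other member had libraries of WT#1-4 and of the knockout lines that did not overlap, 2 of 32 against 5.96% of 16516 genes.

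Insig1 had the largest fold change, -2.13, FDR 0.00107, but overlapped on days 0 to 5: the values of WT#1-4 there were 52.6, 99.3 and 73.2 CPM, and those of the knockout lines over all days 49.1 to 171 CPM. Srebf2, the gene of SREBP2, measured 351, 268, 249, 391 and 631 CPM in WT#1-4, 239, 329, 563, 329 and 263 in WT#20D-17, 205, 249.8, 226, 231 and 240.1 in Nox4-/-#5-8 and 239.8, 211, 169, 201 and 277 in Nox4-/-#5-23 (log2 fold change -0.76, FDR 0.00402). Its partner Srebf1 had a log2 fold change of -0.09, FDR 1. Lss, lanosterol synthase, measured 59.8, 82.4, 68.4, 82.7 and 267 CPM in WT#1-4, 78.2, 100.2, 128, 100.2 and 52.4 in WT#20D-17, 49.3, 77.4, 52.2, 39.9 and 27.4 in Nox4-/-#5-8 and 74.3, 47.3, 32.6, 31.7 and 61.8 in Nox4-/-#5-23 (log2 fold change -1.19, FDR 0.00552). Cyp51, the lanosterol demethylase, measured 88.1, 121, 100.5, 135 and 373 CPM in WT#1-4, 74.9, 133, 132, 122 and 49.1 in WT#20D-17, 83.8, 101, 63.1, 48.6 and 48.8 in Nox4-/-#5-8 and 107, 82.7, 61.5, 54.4 and 119 in Nox4-/-#5-23 (log2 fold change -1.10, FDR 0.00757). On day 0 the value of WT#1-4 lay between those of the knockout lines for both enzymes, and from day 3 on it lay above both. Sqle, squalene epoxidase, was just outside the threshold (-1.01, FDR 0.0103).

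In the mevalonate arm the smallest p-values were those of Mvd, the decarboxylase, and Hmgcs1, neither of which was called against WT#1-4. Mvd measured 21, 28.5, 24.1, 28 and 64.6 CPM in WT#1-4, 34.4, 46.7, 52.9, 40.4 and 13.9 in WT#20D-17, 17.4, 28.9, 18.2, 15.3 and 20.9 in Nox4-/-#5-8 and 21.7, 15.3, 12.2, 12.2 and 19.9 in Nox4-/-#5-23 (log2 fold change -0.88, FDR 0.0199), and Hmgcs1 had -0.99, FDR 0.0592. Fdft1, squalene synthase, measured 137, 163, 159.7, 209 and 503 CPM in WT#1-4, 231, 261, 231, 229 and 123 in WT#20D-17, 121, 127, 106, 103 and 191 in Nox4-/-#5-8 and 120.1, 99.7, 105, 117 and 198 in Nox4-/-#5-23 (-0.87, FDR 0.0243). Among the fatty acid enzymes Scd1 (-1.18, FDR 0.0269) and Scd2 (-0.88, FDR 0.0274) had the smallest p, while Acly (-0.02), Elovl6 (-0.08), Acaca (-0.16) and Fasn (-0.20) had log2 fold changes near 0. Fads1, a desaturase on the way to arachidonic acid, measured 179, 143, 119, 181 and 298 CPM in WT#1-4, 79.4, 74.4, 93.4, 80.8 and 47.2 in WT#20D-17, 126, 110.0, 76.6, 67 and 66.8 in Nox4-/-#5-8 and 159.9, 119, 55.1, 55.5 and 74.6 in Nox4-/-#5-23 (log2 fold change -1.02, FDR 0.00358). Acsl4, which links arachidonic acid to coenzyme A, measured 30, 34.3, 34.1, 53.6 and 98 CPM in WT#1-4, 119.7, 65, 71.7, 63.5 and 47.8 in WT#20D-17, 25.2, 25.6, 23.6, 27.2 and 25.4 in Nox4-/-#5-8 and 22.8, 15, 15.4, 19 and 37.5 in Nox4-/-#5-23 (log2 fold change -1.09, FDR 0.00203). For Acsl4, WT#1-4 was above both knockout lines on every day, and WT#20D-17 was above WT#1-4 on days 0 to 7.

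Against WT#20D-17 instead, the same exact test called 12 members, 10 lower in the knockout libraries (16% of genes were lower) and 2 higher (9.82% of genes were higher). Both tests share the 10 knockout libraries, and the values of each stand side by side. Insig1 (-1.89, FDR 3.71e-08), Stard4 (-1.31, FDR 2.01e-07), Acsl4 (-1.66, FDR 2.82e-11), Lss (-0.92, FDR 0.00197) and Srebf2 (-0.64, FDR 0.00493) were lower in the knockout libraries against either wild type line. Mvd (-1.08), Fdft1 (-0.76), Hmgcs1 (-0.86), Nsdhl (-0.81) and Acly (-0.85) were called only against WT#20D-17. Nsdhl, a dehydrogenase of the demethylation steps, measured 24.9, 41.6, 35.8, 31.8 and 41.2 CPM in WT#1-4, 54.9, 70.6, 53.6, 63.8 and 18 in WT#20D-17, 28.7, 46.9, 33, 23.4 and 28.8 in Nox4-/-#5-8 and 27.9, 26.3, 25.7, 24.3 and 36.8 in Nox4-/-#5-23. Hsd17b7, Cyp51 and Fads1 were not called against WT#20D-17, and for Hsd17b7 (0.56, FDR 0.0864) and Fads1 (0.25, FDR 0.602) the fold change was above 0.

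Ebp and Acaca were called higher in the knockout libraries against WT#20D-17 (log2 fold changes 1.44, FDR 1.5e-08, and 1.27, FDR 3.75e-05). Ebp measured 54.1, 69.1, 71.1, 71.2 and 68.6 CPM in WT#1-4, 20.9, 39.6, 33.6, 44.8 and 29 in WT#20D-17, 66.8, 74.9, 82.5, 90.7 and 139 in Nox4-/-#5-8 and 63.5, 89.9, 103, 108 and 107 in Nox4-/-#5-23. Every knockout library was above every library of WT#20D-17, and WT#1-4, at 54.1 to 71.2 CPM, overlapped the lower knockout values. Acsl4 was lower than WT#20D-17 in every knockout library. These were 2 of 32 members without overlap, against 26.1% of genes, and no member was without overlap against both wild type lines (2.75% of genes).

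**Figure D5:**
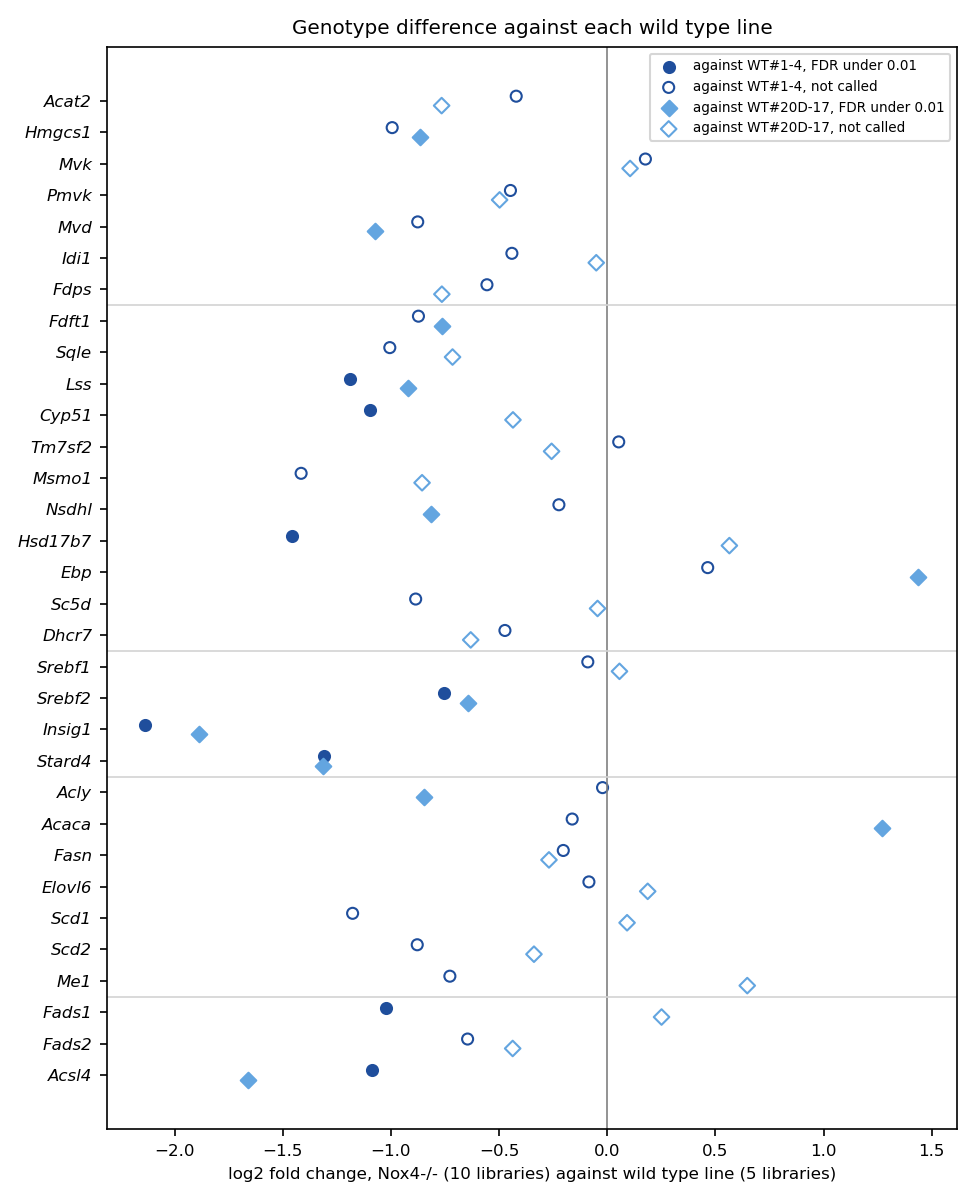
Log2 fold change of the 10 knockout libraries against WT#1-4 (circles) and against WT#20D-17 (diamonds), 5 libraries each, from edgeR's exact test, for the 32 members in role groups; filled symbols passed an FDR of 0.01. Lss, Srebf2, Insig1, Stard4 and Acsl4 are filled and below 0 in both, and for Hsd17b7, Tm7sf2, Fads1, Scd1, Acaca, Elovl6, Srebf1 and Me1 the symbols lie on opposite sides of 0.

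Day by day, with 1 library per line and no test, the median difference of the members between knockout and wild type was smallest in size on day 0. Of the 32 members 8 were lower in both knockout lines than in WT#1-4 on day 0, then 19, 29, 27 and 26 on days 3, 5, 7 and 14. Those higher in both numbered 11, 3, 1, 1 and 3 on the same days. The median log2 difference went from 0.0059 on day 0 to -0.93 on day 7 and -1.36 on day 14. Against WT#20D-17 the numbers lower in both were 16, 19, 26, 26 and 6, and those higher in both were 11, 10, 5, 4 and 18. The medians were -0.15 on day 0, -1.08 on day 7 and 0.50 on day 14. On day 0 single members ran from -2.28 to 1.97 against WT#20D-17. The knockout lines are shared by the counts against each wild type line. Such counts were not made over all genes, so no background share stands beside them.

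How far clones of 1 genotype differ was examined in the same fit as the days. The F test of the lines called 8 of 32 members, against 51.4% of genes: Hsd17b7, Ebp, Stard4, Acly, Acaca, Me1, Fads1 and Acsl4. Without day 14 it called 20 members and 9272 of all genes, against 9165 with all days. Between the wild type lines, WT#20D-17 was lower than WT#1-4 for 5 members (19.4% of genes were lower) and higher for 1 (20.4% of genes were higher). In log2 units Hsd17b7 differed by -2.06 ± 0.29 (SE), Me1 by -1.63 ± 0.25, Acaca by -1.52 ± 0.17, Fads1 by -1.31 ± 0.30, Ebp by -1.04 ± 0.15 and Acly by 0.75 ± 0.14, with an FDR of at most 0.00175. Between the knockout lines 0 members differed at this threshold, against 3.64% of genes, and 5 members and 3868 of 17827 genes had an unadjusted p under 0.05.

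Some members lie on chromosomes whose genes stood apart as a whole in 1 line. On chromosome 5 the median gene of Nox4-/-#5-23 was 0.51 log2 units above the mean of the other lines (0.44 to 0.53 over the days), with the median of all genes set to 0. Mvk, mevalonate kinase, lies there and measured 24.2, 22.6, 27.5, 20.3 and 11.7 CPM in WT#1-4, 20.3, 23.3, 25.6, 29.9 and 11.1 in WT#20D-17, 24.7, 21.2, 13.7, 12.9 and 22.8 in Nox4-/-#5-8 and 36.6, 31.1, 26, 24.7 and 28.2 in Nox4-/-#5-23. Its log2 ratio to the other lines in Nox4-/-#5-23 had a median of 0.46 over the days. Cyp51 and Insig1 lie on chromosome 5 as well, with medians of -0.50 and -0.84 in that line, below the chromosome's. On chromosome 14 the median gene of WT#20D-17 was 0.40 above the others (0.37 to 0.43), and Fdft1, the member there, had a median of 0.87. The part of the chromosomes in these values was not tested.

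With the mean of each line removed, the 18 sterol enzymes were mostly positively correlated over the 20 libraries, with a median Pearson r of 0.63 over 153 pairs of genes (-0.33 to 0.95). The libraries share lines and days, and r is given as a description. The closest to the mean of the other sterol enzymes were Mvd (0.96), Fdps (0.94), Cyp51 (0.93) and Sqle (0.91). Mvk (0.28) and Ebp (0.017) were the sterol enzymes that followed it least. Among members outside the group, Stard4 (0.71), Fads2 (0.71) and Fads1 (0.705) were near it, Insig1 was at 0.40 and Me1 at -0.26. Tm7sf2, a sterol reductase, was at 0.65 and measured 12, 13.8, 12.1, 10.8 and 12.6 CPM in WT#1-4, 18.1, 16.6, 16.4, 18.8 and 5.24 in WT#20D-17, 17.1, 13.3, 10.9, 8.6 and 25.4 in Nox4-/-#5-8 and 13.6, 9.06, 8.45, 8.39 and 12.9 in Nox4-/-#5-23. Idi1, Sc5d and Dhcr7, an isomerase, a desaturase and the last reductase of the pathway, ranged over the libraries from 26 to 279.5, from 31.6 to 191 and from 28.6 to 109.7 CPM.

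Other genes of the pathways were taken from lists by function. Among 24 other sterol genes, not all of which are reported here, Apoe, a lipoprotein component, was lower in the knockout libraries against WT#1-4 (log2 fold change -1.77, FDR 0.00987), and the median log2 fold change of the 24 was 0.02. Of 21 other lipogenic genes, Acss2 (-0.89, FDR 0.0002), an acetyl-CoA synthetase, and Mlxipl (-2.00, FDR 0.00354), the gene of the carbohydrate response factor ChREBP, were lower and Mlx (0.65, FDR 0.0088), its partner, was higher. In this test against WT#1-4, 3.97% of the 33860 genes were lower and 1.65% higher. The comparison with WT#20D-17 is not given for these lists. Over the days 6 of 24 other sterol genes were called, 4 higher and 2 lower on day 14, against 18% of all genes (9.45% higher, 8.52% lower). They included Lbr (-1.46, FDR 2.61e-05), a sterol reductase that is also the lamin B receptor, which was lower, and Insig2 (1.60, FDR 0.000152) and Erlin1 (0.93, FDR 5.88e-05), which were higher. None of the 20 other lipogenic genes tested over the days was called, and 6 had an unadjusted p under 0.05, against 7089 of 17827 genes.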

How the data were processed

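RNA-seq was analysed in 20 libraries, 1 per line and day. The authors deposited expected counts for 55573 genes, made from stranded paired-end mRNA libraries with STAR 2.6.0c and RSEM 1.3.1 on GRCm38 (mm10, per the submitters' processing notes). Reads matching more than 1 gene are shared out by RSEM, which left decimals in 9.92% of values; whether strand was used in counting is not given in the sources used here.

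Counts were rounded and analysed with R 4.3.3, edgeR 4.0.16 and DESeq2 1.42.0. The exact test of genotype with TMM scaling, as in the study's methods, used the 33860 genes above 0 somewhere in the 20 libraries. The 17827 genes passing filterByExpr entered quasi-likelihood tests of day, of line and of the interaction of genotype and day, with line as a block because the same line was sampled on each day. Deviations of a line correlated between days (mean r 0.678 to 0.814 per line). All FDR values are Benjamini-Hochberg over all genes tested, with a threshold of 0.01. A pseudocount of 1 CPM was added before log2. Separate cultures within a line are not given, so p-values measure the spread between these libraries. The fits were tested on simulated data with independent libraries, which cannot check the use of days of 1 clone as replicates.

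Coordinates are from GENCODE M21, and promoters from RefSeq. Values in every library are given for the 2 members of each role group with the smallest p in a test and for members whose call changed with the wild type line; the other members given that way, such as Msmo1, were chosen after their values were seen. Members and lists were chosen with earlier results of these data known. Alternatives covered the test, normalization, filter, threshold, wild type line, block, and leaving out lines and days; those without the day 14 library of WT#1-4, and those that left out day 14 together with a block or with WT#20D-17, were chosen after seeing the data. Some genes of the list of other sterol genes are not reported here.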

Additional observations from a re-analysis of the deposited data

Results flagged for a closer look

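For 6 of the 32 members the comparison with the knockout lines differed between the wild type lines. The test was that of WT#20D-17 minus WT#1-4 in the edgeR quasi-likelihood fit. It called 7080 of all 17827 genes tested (39.7%), so the members do not stand out by their number. The log2 differences were -2.06 for Hsd17b7, -1.04 for Ebp, 0.75 for Acly, -1.52 for Acaca, -1.63 for Me1 and -1.31 for Fads1, each from 5 libraries of 1 clone against 5 of another.

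The desaturase genes Scd1 and Scd2 were higher on day 14 than on day 0 in both wild type lines and lower in both knockout lines. They were flagged for these opposite directions, so the size of their differences is not independent of that choice. Such splits were not counted over all genes, so no background share stands beside them. The mean change of the knockout lines minus that of the wild type lines was -2.70 log2 units for Scd1 and -2.01 for Scd2. In edgeR's test of the interaction of genotype and day they had an FDR of 0.477 and 0.530 and were not called.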

How the results depend on the processing

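In the genotype comparison with WT#1-4, 8 members were called. The quasi-likelihood test called 2, the same test with the day as a replicate block 17, the test with the line as the unit 0, and an FDR threshold of 0.001 left 2. Leaving out a line or a day gave 2 to 11, leaving out the day 14 library of WT#1-4 gave 2, and WT#20D-17 in place of WT#1-4 without day 14 gave 18. Against WT#20D-17 the sign turned for 8 members. Of these, Hsd17b7 (0.56), Acaca (1.27) and Fads1 (0.25) were called in 1 of the tests, and Tm7sf2, Scd1, Elovl6, Srebf1 and Me1 in neither. Among members called in either test the sign also turned without day 14 for Hsd17b7 (0.34), Acaca (1.19), Me1 (1.17) and Fads1 (0.23). Genes called among all numbered 1903 in the main test, 8755 with WT#20D-17, 4074 with all 20 libraries, 1227 in the quasi-likelihood test, 1219 at an FDR of 0.001, 0 with the line as the unit, 1268 without day 5, 1111 without day 7 and 8525 with WT#20D-17 without day 14.

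For the day, 5 members were called, 0 to 5 with a line left out and 0 with no replicate block. Among all genes 3203 were called, 623 to 3979 with a line left out and 644 with no replicate block. The median change of the members, 0.22, turned to -0.22 without the day 14 library of WT#1-4. With a line left out it ran from -0.29 (without WT#1-4) to 0.36, in the step from day 7 to 14 from -0.025 (without WT#1-4) to 0.52, and in the step from day 0 to 3 from -0.027 (without Nox4-/-#5-8) to 0.27, with -0.00022 without WT#20D-17. The line test called 8 members, 13 without a filter, 17 in DESeq2 and 6 to 20 with a day left out. Calls among all genes numbered 9165, 9931, 10667 and 6430 to 9272 in the same order. The interaction called 0 members, 2 in DESeq2 and 0 to 1 with a line left out, against 2, 186 and 0 to 605 of all genes. The median interaction of the members ran from -1.31 (without WT#20D-17) to 0.56 (without WT#1-4). The cause was not tested in any of these cases. With 1 library per line and day, and 1 clone per line, a difference between genotypes cannot be told apart from one between clones.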
